A study of Marchantia polymorpha with 12 samples.

Results

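The transcript described here is that of MpAUS (Mp2g05850), the aurone synthase gene of the liverwort Marchantia polymorpha, which is 1 of 18255 genes in the deposited table and was selected by its identifier. It was followed through 12 libraries of whole gemmalings (plantlets grown from gemmae, the asexual buds of the thallus) in 4 groups of 3. All plants were male and were grown for 7 days in white light of 50 µmol per square metre per second. The groups were the wild type accession Tak-1 without UV-B, Tak-1 with 3 h of added UV-B (1.5 of the same units), and the mutant line Mphy5-1 (Mphy5 below) without and with the same UV-B. Mphy5 is represented by a single line, and its lesion is not described in the labels. The labels number the replicates without naming the cultures behind them; p-values therefore describe the spread among these libraries, which may be technical.

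Aurones are yellow flavonoids made from chalcones. In flowering plants such as snapdragon and Coreopsis the enzyme that closes the aurone ring belongs to the polyphenol oxidase family of copper enzymes. In liverworts the aurone skeleton leads to auronidins, red to purple pigments that are deposited in the cell wall and are known to accumulate in Marchantia under stress such as strong light or nutrient shortage. The route shares its first enzymes (phenylalanine ammonia-lyase, cinnamate 4-hydroxylase, 4-coumarate:CoA ligase, chalcone synthase) with the other flavonoids. HY5, after which the mutant is named, is in flowering plants a bZIP protein that acts below the UV-B photoreceptor UVR8 and binds promoters of flavonoid genes.

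The libraries held 44787979 to 67532310 recovered reads each. Transcripts of V chromosome genes summed to between 139780 and 162980 normalized reads per library and those of U chromosome genes to between 94.4 and 145. MpBZIP1 (Mp1g16800), taken as MpHY5 from published nomenclature, stood at 1281 to 1418 normalized reads in Tak-1 and 1521 to 1592 in Mphy5 without UV-B, and at 5745 to 6354 and 15534 to 16815 with it, so the transcript was present in the mutant and gives no check of its label. Matched markers of other cell types were present in all groups, though MpPRM of the sexual organs was near 0 (group means 0.27 to 3.54). MpRSL1 and MpRSL3 of rhizoids and MpBNB and MpFGMYB of sexual organs had no match in the name table. Rhizoids were therefore not assessed. Of 4 oil body markers only MpC1HDZ was called with UV-B, rising from a mean of 2622.5 to 3275.8 in Tak-1 and 2766.4 to 3866.5 in Mphy5. MpERF13 (343 to 279 and 422 to 360) and MpSYP12B (293 to 261 and 524 to 465) went down without a call. MpR2R3-MYB2 was not called. The summed level, mostly MpC1HDZ, went from 3683 to 3980 without UV-B to 4002 to 4740 with it in Tak-1. In Mphy5 the sum went from 4246 to 4646 to 5236 to 5710. Of 2 gemma cup markers MpKAR fell in each line and MpGCAM1 was not called in either. Their sum, mostly MpKAR, went from 2690 to 2814 to 1901 to 2122 in Tak-1. In Mphy5 that sum went from 2921 to 3415 to 2513 to 2613. None of the 4 matched sexual organ markers was called for UV-B in either line. Of 2 markers of photosynthetic tissue, MpGUN5 rose in each line (means 35157 to 61361 and 28752 to 57310). MpRBCS fell in Mphy5 (21378 to 18791) and was not called in Tak-1 (24006 to 22448). Their sums were 57113 to 62002 and 81478 to 85803 in Tak-1 without and with UV-B. In Mphy5 the sums were 46332 to 54617 and 74091 to 77814. Over all genes tested, 14.6% were called (limma adjusted p under 0.05) in each direction in Tak-1 and 15.9% in Mphy5. Lists of 2 to 4 markers are too short to be set against these shares. No matched marker was at 0 in all libraries, and the part of the markers in the results on MpAUS was not tested.

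MpAUS was a rare transcript without UV-B and a moderately abundant one with it. In Tak-1 without UV-B it stood at 29.35, 26.02 and 10.26 normalized reads, which rest on 32, 26 and 10 recovered reads. With UV-B the Tak-1 libraries stood at 484.7, 343.5 and 469.2 normalized reads, from 417, 294 and 449 recovered reads. Every Tak-1 library with UV-B was above every one without it, and the lowest of the former was 11.7 times the highest of the latter. In Mphy5 without UV-B it stood at 17.4, 15.6 and 17.9 normalized reads, from 16, 20 and 22 recovered reads. With UV-B the Mphy5 libraries stood at 385.1, 259.9 and 216.2 normalized reads, from 359, 321 and 181 recovered reads. The Mphy5 groups did not overlap either, and their gap was 12.1 times.

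**Figure D1:**
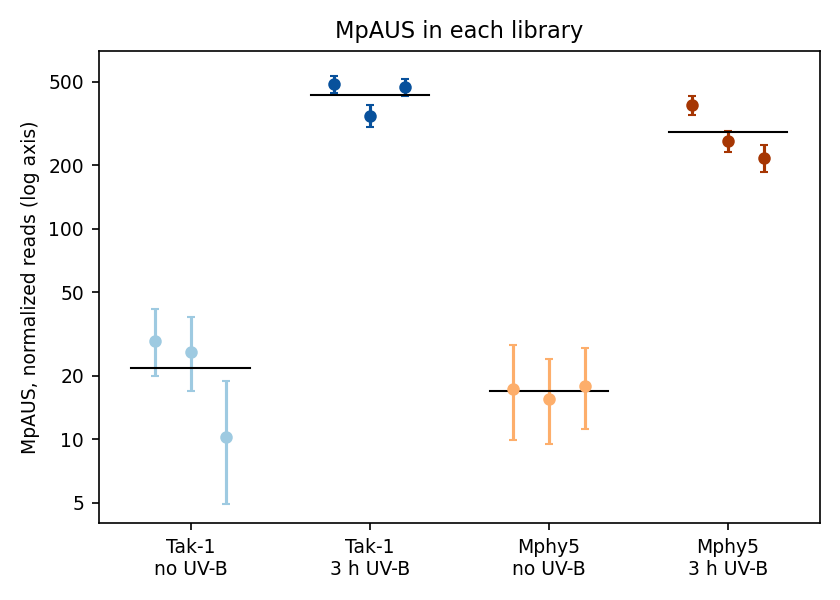
Normalized reads of MpAUS (log axis) in each of the 12 libraries by group; points are libraries, bars are exact 95% Poisson intervals of the recovered reads (counting error only), and black lines are group means. The 6 libraries with UV-B sit between 216.2 and 484.7, all above the 6 without it, which sit between 10.26 and 29.35.

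The spread between libraries differed between the groups. Group means were 21.9 ± 10.2 (SD, n = 3) and 432 ± 77.5 (SD, n = 3) normalized reads in Tak-1 without and with UV-B, and 17.0 ± 1.20 (SD, n = 3) and 287 ± 87.7 (SD, n = 3) in Mphy5. The SD was 46.6% of the mean in Tak-1 without UV-B, where replicate 3 was low. Counting error at 10 reads gives that library an exact 95% Poisson interval of 4.92 to 18.9 normalized reads, which overlaps the interval of replicate 2 (17.0 to 38.1) and not that of replicate 1 (20.1 to 41.4). In Mphy5 without UV-B the SD was 7.07% of the mean, and the intervals of its 3 libraries overlapped. In whole gemmalings, fewer cells with the transcript and less of it per cell cannot be told apart.

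UV-B raised MpAUS in both lines. In Tak-1 the log2 fold change was 4.35 (SE 0.31, 95% interval 3.70 to 5.01), a 20.4-fold rise, and MpAUS was higher in 3 of 3 libraries (limma adjusted p = 1.21e-09). For scale, 14.6% of the 15999 genes tested were called higher in that comparison, called meaning an adjusted p under 0.05, and 20.2% had groups that did not overlap in that direction (40.2% in either direction). In Mphy5 the log2 fold change was 3.96 (SE 0.31, 95% interval 3.31 to 4.62), a 15.6-fold rise, again higher in 3 of 3 libraries (limma adjusted p = 3.65e-09). There 15.9% of genes were called higher and 21.0% had groups that did not overlap (43.0% in either direction). As a description of size, the rise of MpAUS ranked 9 of 15999 genes in Tak-1 and 15 in Mphy5 with a pseudocount of 1; ranks under other settings were not computed. Fold changes are on the scale of log2(value + 1). With a pseudocount of 5 they were 4.09 and 3.69, and MpAUS stayed called in both lines under all 23 alternatives of each comparison.

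The rise was not shown to differ between the lines. The difference of the responses, Mphy5 minus Tak-1, was -0.39 on the log2 scale (SE 0.44, 95% interval -1.32 to 0.54; limma adjusted p = 0.749), while 4.46% of genes had a called difference, 1.93% higher and 2.54% lower. The interval runs from a response 0.402 times that of Tak-1 to one 1.45 times it. With 3 libraries a group, a change of either kind within that range remains compatible with the data. Without Tak-1 replicate 3 without UV-B, the library with 10 reads, the difference was 0.06 (adjusted p = 0.963), so the sign of the difference rests on that library.

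Ordered by level, Tak-1 with UV-B stood highest, then Mphy5 with UV-B, Tak-1 without UV-B and Mphy5 without UV-B. Between the groups with UV-B, Mphy5 was lower by 145 normalized reads on average, with a log2 difference of -0.62 (SE 0.31, 95% interval -1.27 to 0.04; limma adjusted p = 0.154, unadjusted p = 0.0641). The groups overlapped there, since replicate 1 of Mphy5 (385.1) was above replicate 2 of Tak-1 (343.5). In that comparison 29.8% of genes were called, and 40.4% had groups that did not overlap. The call depended on the fit: MpAUS was called lower in Mphy5 when only the groups compared were fitted (adjusted p = 0.0486) and by DESeq2 on recovered reads (-0.59, adjusted p = 0.0364), while edgeR gave -0.59 with an adjusted p of 0.0509. The middle neighbours in the order, Mphy5 with UV-B and Tak-1 without it, differ in line and treatment together and did not overlap. The share of all genes without overlap was not computed for that pair. Without UV-B the lines did not differ beyond their spread, with a log2 difference of -0.23 (SE 0.31, 95% interval -0.88 to 0.43; limma adjusted p = 0.666), against 24.9% of genes called and 39.0% without overlap (18.4% higher in Mphy5). Mphy5 lay inside the range of Tak-1 there, and the difference was 0.04 without Tak-1 replicate 1 and -0.68 without Tak-1 replicate 3 (limma adjusted p = 0.0728, unadjusted p = 0.0171).

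**Figure D2:**
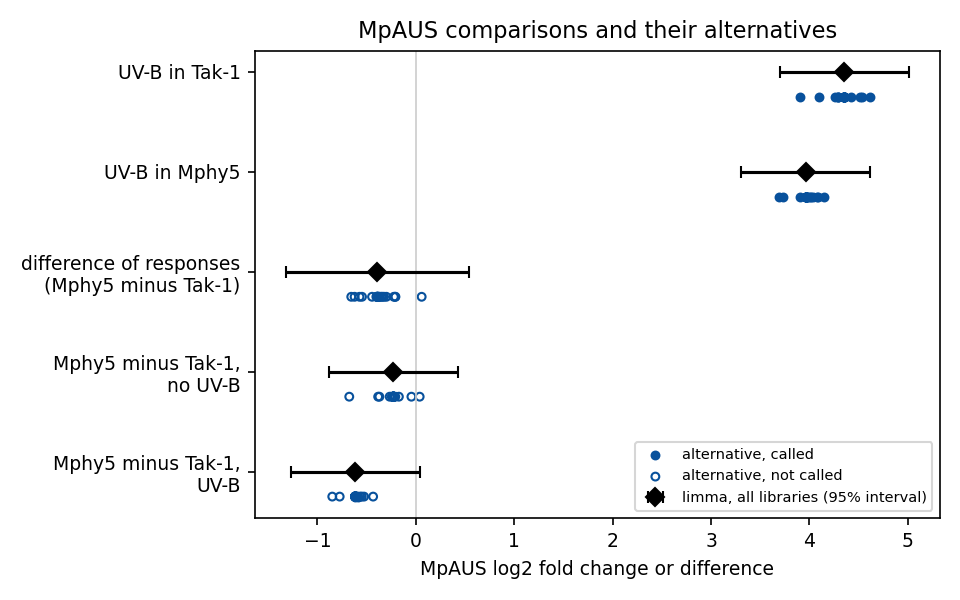
Log2 fold changes or differences of MpAUS (x axis) in the 5 comparisons (y axis); diamonds with bars are limma estimates with 95% intervals from all libraries, and circles are the alternatives, filled where called at an adjusted p under 0.05. Both UV-B effects lie at 3.69 or above in every alternative shown, while the 3 comparisons between the lines lie near or below 0.

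The symbols of the name table hold 57 polyphenol oxidase (PPO) genes beside MpAUS, and none of them rose like it in either line. In Tak-1, 0 of the 43 PPO genes tested rose, 3 fell and 40 were not called, and their median log2 fold change was -0.05 beside -0.01 over all genes. In Mphy5, 1 rose, 1 fell and 41 were not called, with a median of -0.05 beside -0.01. The background was 29.2% of genes called in Tak-1 and 31.8% in Mphy5. The list was chosen with earlier results of these data known, so these counts are a description. Among these 43 the largest log2 fold changes were 1.00 in Tak-1 and 1.15 in Mphy5, neither of them called, so that 0 of 43 exceeded MpAUS. The other 14 PPO genes did not pass the filter on low values, and 7 of these were at 0 in every library while the highest value among the rest was 6.24 normalized reads.

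The PPO genes that moved had their own patterns. MpPPO20 stood at 3532, 3449 and 3374 normalized reads in Tak-1 in white light alone and at 3792, 3555 and 3716 with UV-B. The Mphy5 libraries had 4374, 3630 and 3732 in white light alone and 7458, 7818 and 7278 with UV-B, above all 9 other libraries. It was thus called in Mphy5 (log2 fold change 0.95, limma adjusted p = 5.26e-11) and not in Tak-1 (0.10, adjusted p = 0.254), and the difference of the responses was called (0.85, adjusted p = 2.98e-06). MpPPO37 fell in Mphy5 from 7189 ± 283 to 4366 ± 179 (SD, n = 3; -0.72, limma adjusted p = 1.51e-09) and had -0.12 in Tak-1, where limma called it only without replicate 2 of the untreated or replicate 1 of the treated libraries; the difference was called too (-0.60, adjusted p = 7.45e-05). The falls in Tak-1 were those of MpPPO24, MpPPO48 and MpPPO27. MpPPO24 and MpPPO27 stood at means of 10.8 and 4.32 normalized reads in white light alone and at 0.387 and 0 with UV-B, so they rest on few reads. MpPPO48 went from 1481 ± 253 to 1057 ± 116 (SD, n = 3; -0.48, limma adjusted p = 0.018), a call lost when either replicate 2 of untreated Tak-1 or replicate 3 of treated Tak-1 was left out. The call of MpPPO27 (limma adjusted p = 0.0193) was lost without Tak-1 replicate 2 or 3 without UV-B, with a filter at 5 and in DESeq2. Limma did not call MpPPO11 in Tak-1 (adjusted p = 0.0837) or MpPPO63 and MpPPO42 in Mphy5 (0.0682 and 0.0696). Each was called lower in some alternatives: MpPPO11 by DESeq2 and without replicate 1 of untreated Tak-1, MpPPO63 by limma without trend and robust options, and MpPPO42 by edgeR, DESeq2 and a fit with the replicate block.

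**Figure D3:**
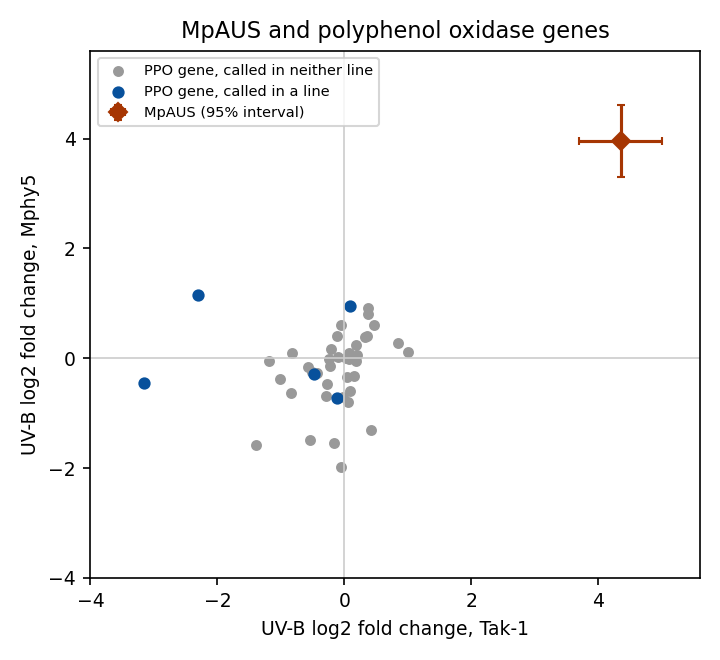
UV-B log2 fold change in Tak-1 (x axis) against Mphy5 (y axis) for MpAUS (diamond with 95% intervals) and the 43 tested polyphenol oxidase genes (circles; blue where called in at least 1 line). MpAUS lies at 4.35 and 3.96, and the highest values among the other genes are 1.00 and 1.15.

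Genes next to MpAUS in locus order did not share its rise. MpPPO2, MpPPO3 and MpPPO4 lie 7, 6 and 4 loci before it in the order of the table, and limma called none of them in a UV-B comparison. MpPPO3 had a log2 fold change of -1.59 in Mphy5 (limma adjusted p = 0.17) and was called lower there in 5 of 23 alternatives, edgeR and DESeq2 among them (lowest adjusted p = 0.0169). MpPPO4 went from 131 ± 48.9 to 125 ± 87.4 normalized reads in Tak-1 and from 666 ± 218 to 399 ± 31.1 in Mphy5 (SD, n = 3). It was higher in Mphy5 without UV-B (log2 difference 2.35, limma adjusted p = 0.0149), a call lost without Tak-1 replicate 2 without UV-B. Of the 3 loci on either side, Mp2g05840, the nearest before MpAUS, had 3 recovered reads over all 12 libraries and was not tested, and Mp2g05820, Mp2g05830 and MpMHK3 were low and not called. Mpsnf1.10, the nearest after it, had log2 fold changes of 0.26 in Tak-1 (limma adjusted p = 0.0474, lost in 11 of 23 alternatives) and 0.21 in Mphy5, where it was called only without replicate 1 of the untreated libraries. Mp2g05870 had 0.06 and 0.15, the latter called (limma adjusted p = 0.0229), a call lost when either replicate 3 of untreated Mphy5 or replicate 1 of treated Mphy5 was left out and in limma without trend and robust options.

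At several steps of the pathway around MpAUS single genes rose, while other genes of some of these families fell. The genes named per step are mainly those that rose most, chosen after their values were seen. Of 69 pigment pathway genes tested by symbol, 21 rose, 15 fell and 33 were not called in Tak-1, and 21 rose, 17 fell and 31 were not called in Mphy5. Over all genes 14.6% were called higher and 14.6% lower in Tak-1, and 15.9% each way in Mphy5. The list's median log2 fold changes were -0.08 and 0.03, beside -0.01 in both lines over all genes. Called or not, 7 were at least 2-fold higher and 9 at least 2-fold lower in Tak-1, and 8 and 8 in Mphy5. The list was chosen with earlier results of these data known, so its counts are a description. None of the 69 had a log2 fold change above that of MpAUS in Tak-1 or, with all libraries and a pseudocount of 1, in Mphy5. In Mphy5 MpPKS/CHS2, at 3.77 or more in every alternative, was above MpAUS with a pseudocount of 5 (3.69) and without replicate 1 of the treated libraries (3.73). Of the entry enzymes, MpPAL1 (phenylalanine ammonia-lyase) rose by 1.81 on the log2 scale in Tak-1 and by 2.59 in Mphy5, and it was the only one of 11 PAL genes to rise in either line, while 4 fell in Tak-1 and 2 in Mphy5. MpC4H1 (cinnamate 4-hydroxylase) rose by 0.60 and 0.61. Neither of 2 genes for 4-coumarate:CoA ligase rose, and limma called Mp4CL2 lower in both lines (-0.15 and -0.35). Among 26 chalcone synthase family genes 4 rose and 7 fell in Tak-1, and 2 rose and 8 fell in Mphy5, so the share that rose was near or below that of all genes (14.6% and 15.9%).

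MpPKS/CHS2, of the chalcone synthase family, had the largest rise of the list. It stood at 6850, 6344 and 6303 normalized reads in Tak-1 in white light alone and at 59618, 64451 and 53414 with UV-B. The Mphy5 libraries had 4309, 4315 and 4305 in white light alone and 58839, 62744 and 58648 with UV-B. Its groups with and without UV-B were far apart in each line (log2 fold changes 3.18 and 3.80). The chalcone isomerase MpCHI rose by 0.98 and 0.97, and all 3 genes of chalcone isomerase-like proteins rose in both lines, led by MpCHIL2 with 2.36 and 2.29. MpF3H, a flavanone 3-hydroxylase on the branch away from aurones, rose by 2.61 in Tak-1 and 2.92 in Mphy5. Of 19 genes related to dihydroflavonol reductase 9 rose and 3 fell in Tak-1 and 10 and 5 did in Mphy5, against 14.6% and 15.9% of all genes called in each direction, with MpDFR-like19 at 2.69 and 2.45 and MpDFR-like12 at 1.49 and 1.46. MpLAR-like5, related to leucoanthocyanidin reductase, rose by 0.92 and 1.16. Within the 3 Tak-1 libraries with UV-B, the library lowest in MpAUS, replicate 2, was the highest in MpPKS/CHS2 and MpF3H. It was also the highest of the 3 in MpPAL1, MpDFR-like12, MpRUP and MpCOP1, though not in MpCHIL2 or MpBBX2. The pattern is thus not particular to those 2 enzymes, and it rests on 1 library. Near-identical members of the PPO and chalcone synthase families may have split or shared reads, which makes values of single members uncertain.

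**Figure D4:**
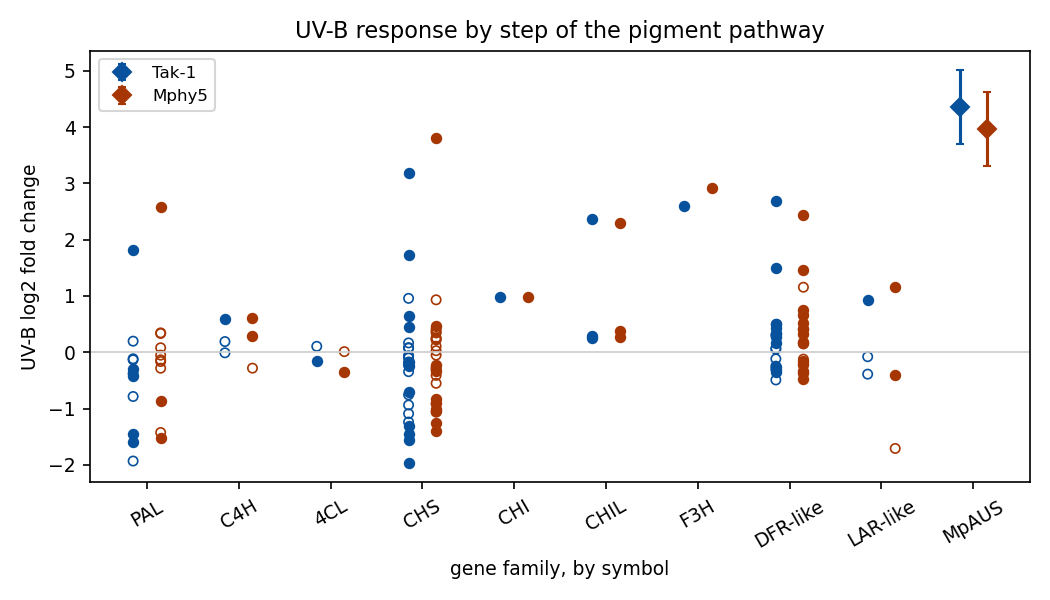
UV-B log2 fold change (y axis) of 69 pigment pathway genes grouped by family (x axis) and of MpAUS, in Tak-1 (blue) and Mphy5 (red); circles are genes, filled where called, and diamonds are MpAUS with 95% intervals. MpAUS is at 4.35 and 3.96 and the highest gene of the 9 families, MpPKS/CHS2, at 3.18 and 3.80, the latter inside the 95% interval of MpAUS in Mphy5.

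Regulators of the pigment and of UV-B signalling did not follow 1 pattern. Of 19 such genes 11 rose and 2 fell in Tak-1, and 12 rose and 4 fell in Mphy5, against 14.6% and 15.9% of all genes called in each direction, with medians of 0.24 and 0.53 beside -0.01 over all genes. This list was chosen with earlier results of these data known, so its counts are a description and no test of the list. MpR2R3-MYB14, the MYB factor known in Marchantia to activate auronidin formation, stood at 16.5, 8.01 and 9.24 normalized reads in Tak-1 in white light alone and at 29.1, 31.5 and 30.3 with UV-B. The Mphy5 libraries had 5.42, 23.4 and 11.4 in white light alone and 92.3, 84.2 and 93.2 under UV-B. Its groups with UV-B did not overlap between the lines, the mutant being higher (log2 difference 1.54, limma adjusted p = 0.00917), whereas MpAUS in the same libraries was not called and had a difference of -0.62. Over all genes 18.8% did not overlap there with Mphy5 higher (40.4% in either direction), and 13.8% were called higher. MpR2R3-MYB14 rose by 1.41 in Tak-1 (limma adjusted p = 0.0152, lost without replicate 2 or 3 without UV-B) and by 2.86 in Mphy5 (adjusted p = 1.67e-05), and the difference of 1.45 was not called (adjusted p = 0.226).

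MpR2R3-MYB2, the MYB factor known for activating bisbibenzyl formation in oil bodies, had UV-B log2 fold changes of 0.01 and 0.08 and was not called. MpBHLH12, a bHLH factor known to affect flavonoid levels in Marchantia, had means of 3184 ± 83.1 normalized reads without UV-B and 3356 ± 88.8 under it in Tak-1, and of 2187 ± 44.9 and 1700 ± 145 in Mphy5 (SD, n = 3). It was lower in Mphy5 without UV-B (-0.54, limma adjusted p = 5.63e-07) and with it (-0.98, adjusted p = 6.76e-11). MpUVR8, the UV-B photoreceptor, was not called in any comparison, with -0.04 and 0.03 for UV-B. MpRUP and MpCOP1, whose relatives in flowering plants repress UV-B and light signalling, rose by 2.72 and 1.09 in Tak-1 and by 3.82 and 2.11 in Mphy5. MpDET1, another light repressor in flowering plants, rose by 0.89 and 1.81, and MpCRY-DASH, a relative of photolyases, by 2.23 and 2.27. Of the B-box genes, MpBBX1 rose in both lines by 0.24 and 0.53, and MpBBX2 by 3.16 in Tak-1 and 5.16 in Mphy5. The rise of MpBBX2 in Mphy5 was above that of MpAUS there (3.96). MpBBX5 fell in both lines (-0.43 and -0.67), and MpBBX4 had calls of -0.14 and -0.15 that were lost without single libraries. MpBBX3 rose and MpBBX6 fell in Mphy5, and neither was called in Tak-1. The difference of responses was called for 9 of the 19 regulators, against 4.46% of all genes. That count comes from a list chosen with earlier results of these data known and cannot be read as an excess.

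Likeness to MpAUS was measured across the 12 libraries as the root mean square difference between profiles of log2(value + 1), each centred on its own mean. Over 11998 genes whose highest group mean was at or above the 25th percentile of tested genes (70.1 normalized reads), the median difference was 2.14 log2 units, and the libraries of MpAUS scattered about their own group means by 0.38. The 10 genes nearest to it differed by 0.52 to 0.74. Since they were selected for this, their rises with UV-B are a description. The likeness did not extend to the lines. Only Mp2g21840 had a negative difference of responses (-1.37), as MpAUS had (-0.39), and neither was called. The difference was called and positive for MpPKS/CHS2, MpRUP, Mp5g06960 and Mp6g14520. The nearest, Mp4g09940, stood at 32.1, 31.0 and 26.7 normalized reads in Tak-1 in white light alone and at 340.6, 408.9 and 290.5 with UV-B. The Mphy5 libraries had 23.9, 28.1 and 26.1 in white light alone and 346.5, 340.0 and 328.4 under UV-B. The levels of both lines were close there at each condition. MpPKS/CHS2 was second at 0.57, and MpRUP eighth at 0.71, and they were the only genes with a symbol among the 10. The others were Mp6g14520, Mp3g02290, Mp2g25900, Mp5g06960, Mp7g03420, Mp8g01480 and Mp2g21840, to which the name table gives no symbol. Of these, Mp2g25900 had means of 32.8 and 647 normalized reads in Tak-1 and 15.4 and 478 in Mphy5. With UV-B, Mp4g09940 was nearer to MpAUS in level, at means of 347 in Tak-1 and 338 in Mphy5. These levels are not scaled by length.

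**Figure D5:**
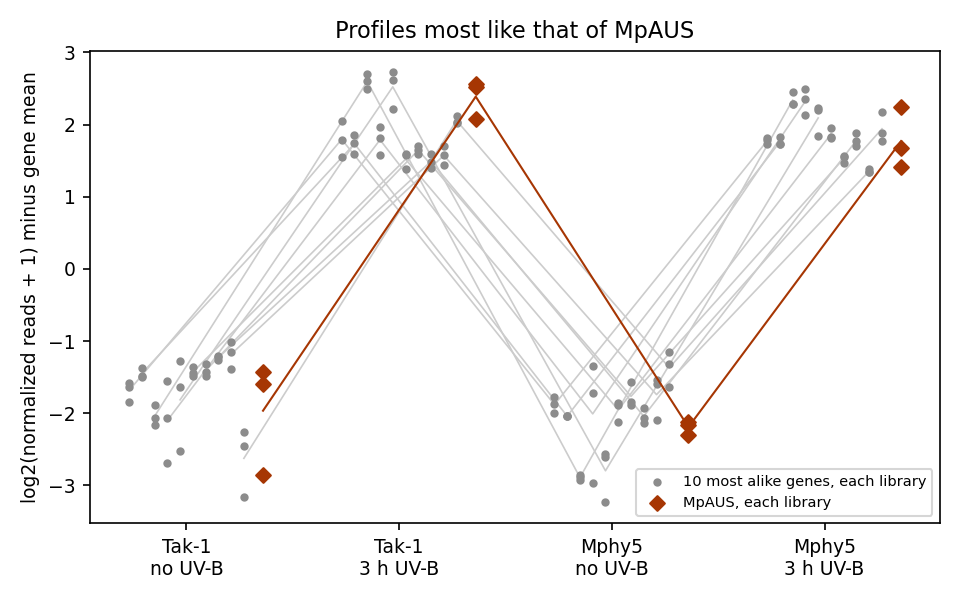
Centred log2(normalized reads + 1) (y axis) of MpAUS (red diamonds) and of the 10 genes most like it (grey points) in each library by group (x axis); lines join group means of a gene. In the 10 genes, selected for likeness, the groups with UV-B lie above those without it, as in MpAUS, while the order of the lines varies between genes. The lowest point of MpAUS is replicate 3 of Tak-1 without UV-B, at 10.26 normalized reads.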

How the data were processed

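RNA from 12 libraries was sequenced as TruSeq single-end reads, per the labels' protocols. The submitters' processing notes name STAR 2.7.4; no source used here gives the build, annotation or counting. The deposited signal per gene is normalized counts: in every library 100% of values came out as whole reads (tolerance 0.02) when divided by the worth of 1 read, so reads were recovered. Intervals and the floor of 3 reads cover counting error only.

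Groups were compared with limma 3.58.1 under R 4.3.3 (trend and robust) on log2(value + 1) with 4 group means, for 15999 genes that reached 1 in 3 or more libraries, with Benjamini-Hochberg adjustment over all of them. edgeR 4.0.16 and DESeq2 1.42.0 were run on recovered reads. All 3 were also run on simulated data with 200 changed genes, far fewer than were called for UV-B here. The outcome is not reported, so that run is no check of the calls given. Further alternatives were pseudocounts, filters, rescaling, a replicate block, subsets of groups and leaving out libraries. Symbols came from a RefSeq table of assembly MpTak2_v7.1, which matched 99.1% of identifiers. Genes named are MpAUS, its 10 nearest profiles, 3 loci on either side, the regulators, and the 4 genes per list and line ranked first by adjusted p. MpPPO2, MpPPO3, MpPPO4 and the gene that rose most at each pathway step lie outside this rule and were chosen after their values were seen. The same holds for Mp4CL2, MpPAL4 and MpPKS/CHS20, named as genes that fell. MpAUS and the lists were chosen with earlier results of these data known. Python 3.11.15 and matplotlib 3.10.9 drew the plots.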

Additional observations from a re-analysis of the deposited data

Results flagged for a closer look

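Of the genes named, 16 had a UV-B response that differed between the lines by a called interaction in limma, and MpAUS was not among them. Over all genes the share was 4.46%. Many of the genes were named for a small adjusted p with UV-B or for likeness to MpAUS. Their count therefore cannot be set against that share. Mphy5 minus Tak-1, on the log2 scale, the differences of regulators were 2.01 for MpBBX2, 1.21 for MpBZIP1, 1.11 for MpRUP, 1.02 for MpCOP1, 0.92 for MpDET1, 0.652 for MpBBX3, 0.29 for MpBBX1, -0.241 for MpBBX5 and -0.442 for MpBHLH12. Those of pathway enzymes were 0.778 for MpPAL1, 0.617 for MpPKS/CHS2 and 0.312 for MpF3H. These enzymes were lower in Mphy5 than in Tak-1 without UV-B (log2 differences -0.97, -0.59 and -0.48, all called). With UV-B their differences between the lines were -0.20, 0.03 and -0.16, of which only that of MpF3H was called. The differences of responses of polyphenol oxidases were 0.851 for MpPPO20 and -0.603 for MpPPO37. Among the genes most like MpAUS, Mp5g06960 had 0.872 and Mp6g14520 had 0.589, and MpPKS/CHS2 and MpRUP, given above, are also among those genes. The call of MpF3H was lost without Mphy5 replicate 2 with or without UV-B and in limma without trend and robust options, and that of MpBBX5 without Tak-1 replicate 1 without UV-B and in limma without those options.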

How the results depend on the processing

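The UV-B effect on MpAUS was called in all 23 alternatives in each line, at 3.90 to 4.62 in Tak-1 and 3.69 to 4.15 in Mphy5. With UV-B, MpAUS was called lower in Mphy5 in 2 of 23 alternatives, with only the groups compared (-0.62) and in DESeq2 (-0.59); the cause was not tested. Leaving out 1 library gave -0.85 to -0.43 there. Without UV-B it gave -0.68 to 0.0397, and for the difference of responses -0.66 to 0.0600, with the positive values without Tak-1 replicate 1 and 3 without UV-B. Limma without trend and robust options called 332 genes and 3 pigment pathway genes in the difference of responses, against 714 and 8; leaving out 1 library gave 5 to 9 pathway genes. For PPO genes, edgeR and DESeq2 each called 4 in Mphy5 against 2, and leaving out 1 library gave 2 to 4 there, 2 to 5 in Tak-1 and 2 to 4 in the difference. The genes most like MpAUS shared 7 to 10 of 10 with each alternative set. The replicate block left MpAUS called in both lines (log2 fold changes 4.35 and 3.96) and changed no MpAUS call. It raised the genes called from 4674 to 4781 for UV-B in Tak-1 and from 714 to 779 for the difference of responses. Same-numbered libraries had deviations correlated by -0.0173 to 0.0539, and libraries of different number by -0.0511 to 0.0375. Whether same-numbered libraries share more than a number cannot be told from these values. Without UV-B MpAUS had 10 to 32 reads per library, and the 95% interval of the difference between the lines ran from -0.88 to 0.43. Differences within that range remain compatible with the data. The part of the low read number in this was not tested.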
